A study of Mus musculus with 6 samples.

Results

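Transcripts of 43 genes of the actin cytoskeleton and cell motility were followed in nTregs, natural regulatory T cells, after stimulation of EP4, a receptor for prostaglandin E2. These CD4 T cells arise in the thymus, restrain other immune cells and are marked by the transcription factor Foxp3. The genes were chosen by name from the reference rows of each library's table and cover actin itself and its monomer-binding proteins, the Arp2/3 complex, nucleation promoters, capping and bundling proteins, myosin and filamin, membrane linkers, and small GTPases with 2 exchange factors. All 43 were among the 47643 reference genes in every table, and all 43 were among the 12186 genes that could be tested, which needed at least 1 FPKM (fragments scaled to transcript length and to library size) in 3 or more libraries. The agonist group holds 3 libraries of cells given 100 nM of an EP4 agonist for 6 h, and the vehicle group holds 3 libraries of cells given DMSO over the same 6 h. All cells of either group carried the Foxp3-DTR/EGFP allele, which puts a diphtheria toxin receptor and a green fluorescent protein under the Foxp3 locus, on C57BL/6. They came from spleen, had received anti-CD3 on the plate, anti-CD28 in solution and IL-2 over 2 days of activation, and were sorted on GFP after the treatment. Age, sex and the number of mice are not given in the labels, nor whether the 3 libraries of a group are separate mice or cultures, so every p-value here is set by differences among the 6 libraries, which could be technical. The values are levels in bulk RNA, in which fewer cells expressing a gene and less RNA per cell cannot be told apart.

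Actin filaments grow from monomers that profilin delivers and thymosins hold in reserve, and cofilin takes old filaments apart. The Arp2/3 complex, switched on by WASP and WAVE proteins under Cdc42 and Rac, builds branched networks, while formins under RhoA build straight filaments. In T cells this machinery drives crawling, the leading edge and the contact zone with an antigen-presenting cell, and loss of several of its parts, among them WASP, coronin 1A, moesin and DOCK8, causes human immune deficiency.

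The cytoplasmic actins Actb and Actg1 encode nearly the same protein from different genes, and how far their transcripts differ sets how well reads can be assigned to each. Their coding sequences have 1128 bases each and differ at 128 of them, an identity of 88.7%, and the longest stretch without a difference is 62 bases. The first 60 coding bases are shown from the start codon, from GENCODE M21 transcripts, with the 9 positions that differ in capitals.
Actg1: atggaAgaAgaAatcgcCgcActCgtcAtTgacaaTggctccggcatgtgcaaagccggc
Actb: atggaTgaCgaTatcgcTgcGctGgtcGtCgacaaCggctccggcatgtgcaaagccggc
Actg1 lies on chromosome 11 (chr11:120345690-120348542, minus strand, mm10) and Actb on chromosome 5 (chr5:142903115-142906754, minus strand).

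Of the 43 genes, 38 had a promoter in the RefSeq table of the GRCm38.p6 build, matched by symbol. The other 5 were not searched, so a gene not named below may lack a match or may not have been searched. The 250 bases before each start were searched on both strands for the CArG box, which the transcription factor SRF binds, and for TGACG with its reverse complement CGTCA, the short core of cyclic AMP response elements, a pathway that EP4 is known to use. A CArG box was present in 4 of the 38 genes (10.5%: Actg1, Arpc4, Myl6 and Vcl), against 1.62% of the 27025 genes in the table. The core was present in 8 of the 38 (21.1%), against 19.8% of all genes, and the full site TGACGTCA, which contains it, in Myl6 alone (2.63%), against 1.77%. The bases before the start are shown for Actg1, which had the largest difference between the groups, for Vcl, which shares the CArG box, and for Arpc3, which had none and whose groups also did not overlap.
Actg1: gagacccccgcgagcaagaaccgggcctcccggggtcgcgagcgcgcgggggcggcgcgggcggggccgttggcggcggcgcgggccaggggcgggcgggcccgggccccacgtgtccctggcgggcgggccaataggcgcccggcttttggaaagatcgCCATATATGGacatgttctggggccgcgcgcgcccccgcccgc
Vcl: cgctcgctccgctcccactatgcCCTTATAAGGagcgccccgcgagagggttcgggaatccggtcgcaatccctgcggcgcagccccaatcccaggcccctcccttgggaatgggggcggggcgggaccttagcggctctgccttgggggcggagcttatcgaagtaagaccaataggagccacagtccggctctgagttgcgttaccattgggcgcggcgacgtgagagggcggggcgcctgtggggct
Arpc3: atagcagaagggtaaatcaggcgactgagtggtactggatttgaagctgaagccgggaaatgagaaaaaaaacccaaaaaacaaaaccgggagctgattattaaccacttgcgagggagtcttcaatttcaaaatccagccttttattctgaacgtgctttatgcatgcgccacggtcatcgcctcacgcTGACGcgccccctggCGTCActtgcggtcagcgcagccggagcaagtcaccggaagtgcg
Capitals mark the CArG box in Actg1 and Vcl and the 2 cores in Arpc3. The Actg1 stretch is chr11:120348543-120348745 on the minus strand, without the 47 bases nearest the RefSeq start that the gene model of the files covers, and its CArG box begins 90 bases before that start. The Vcl stretch is chr14:20929148-20929397 on the plus strand with the box beginning 227 bases before the start, and the Arpc3 stretch is chr5:122391628-122391877 on the plus strand with cores beginning 60 and 45 bases before it. A match is a description of the letters and not a site shown to be bound.

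Aligned sequence came to 4.98, 4.32 and 4.86 gigabases in agonist replicates 1, 2 and 3 and to 4.95, 5.65 and 4.49 gigabases in vehicle replicates 1, 2 and 3. All 8 of the Treg and CD4 T cell markers looked at (Foxp3, Il2ra, Ctla4, Ikzf2, Cd4, Cd3e, Cd3g and Trac) averaged at least 1 FPKM. Their summed levels were 2214 to 2360 FPKM with agonist and 2060 to 2221 FPKM with vehicle, ranges that overlap only at their ends. Of markers of other cells, 0 of 12 myeloid and dendritic markers did, with summed levels of 0.351 to 0.522 FPKM in agonist libraries and 0.282 to 0.971 FPKM in vehicle libraries, and Siglech, S100a8 and S100a9 were listed at 0 throughout. Cd79b alone passed among 6 B cell markers (summed levels 3.76 to 6.26 FPKM with agonist and 5.76 to 6.07 FPKM with vehicle), Cd8b1 and Klrd1 among 6 of CD8 T and NK cells (5.75 to 8.93 and 5.71 to 6.60 FPKM), and Pecam1 among 5 of stroma and endothelium (15.9 to 19.4 and 14.6 to 18.4 FPKM, Dcn at 0). The summed ranges overlap between the groups for each of these lists of other cells.

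Transcripts of the actin machinery were abundant in these cells and, taken gene by gene, mostly differed little between agonist and vehicle. The 43 genes held 3.76, 3.88 and 4.0% of the summed FPKM of reference genes in agonist replicates 1, 2 and 3, against 3.75, 3.88 and 4.08% in vehicle replicates 1, 2 and 3. None of the 43 passed an adjusted p of 0.05 in limma's test without a block (0 of 43, where 0.394% of all tested genes passed, 0.345% higher and 0.0492% lower with agonist). At an unadjusted p of 0.05, 3 of the 43 passed, Actg1, Arpc3 and Diaph1 (6.98%), against 14.0% of all tested genes, so the share among these genes was below the background. The median log2 fold change, agonist minus vehicle, was -0.03 over the 43 genes and -0.03 over all tested genes. For 39 of the 43 genes (90.7%) the 95% interval of the fold change lay within 1.5-fold in either direction, against 76.5% of all tested genes. This share depends on precision as well as on the size of the differences. The median standard error of the log2 fold change was 0.092 for the 43 genes, against 0.117 for all tested genes.

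**Figure D1:**
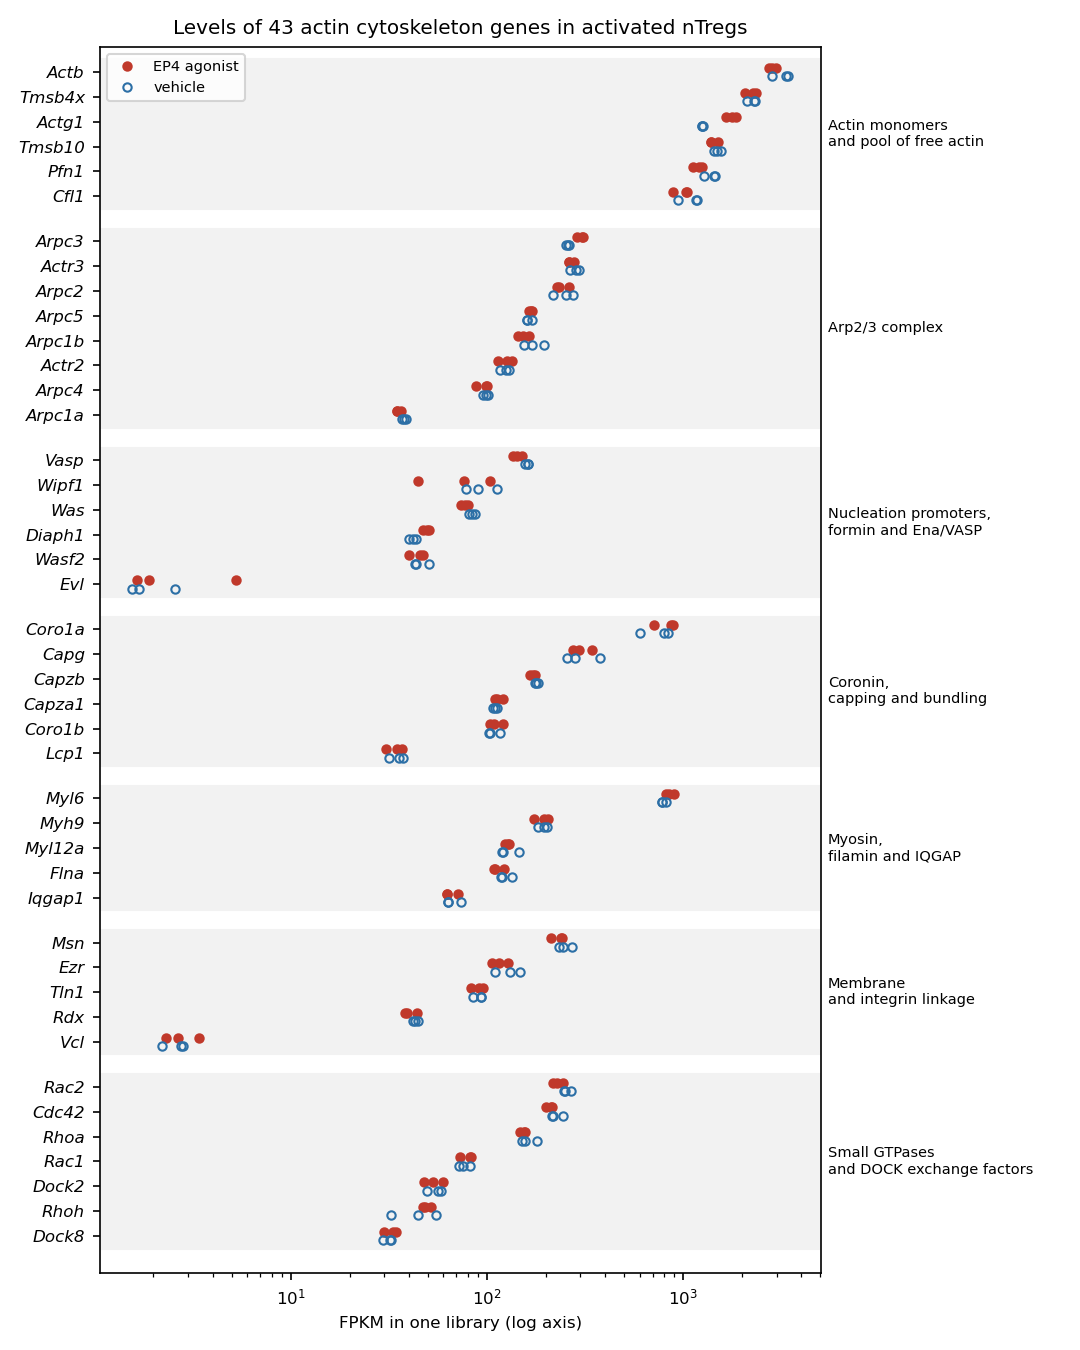
FPKM of the 43 genes in each of the 6 libraries on a log axis, by role, with agonist libraries as filled red points above vehicle libraries as open blue points. Actb, Tmsb4x, Actg1, Tmsb10, Pfn1 and Cfl1 sit at the top of the range, Evl and Vcl lie below 10 FPKM, and among the 6 most abundant genes the points of the groups stand apart for Actg1 and Pfn1.

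Libraries with the same replicate number deviated together from their group means, so the fit with the replicate number as a block is given too. With the block, Actg1 and Diaph1 passed and were higher with agonist, and none was lower (2 of 43, 4.65%, where 10.5% of all tested genes passed, 4.09% higher and 6.41% lower). At an unadjusted p of 0.05, 8 of the 43 passed with the block (18.6%), against 29.8% of all tested genes. The groups did not overlap in 8 of the 43 genes (18.6%), against 19.4% of all tested genes. These were Actg1, Arpc3 and Diaph1, higher with agonist in every library (6.98%, against 7.27%), and Pfn1, Arpc1a, Vasp, Was and Rac2, lower in every library (11.6%, against 12.1%). In all 3 numbered pairs, 8 genes were higher with agonist (18.6%, against 20.7% of all tested genes) and 17 were lower (39.5%, against 31.6%). Without pair 1 the blocked fit called 1 of the 43, Actg1 (2.33%, against 1.98% of all tested genes). Without pair 2 it called 0 of the 43 and 0.00% of all tested genes, and without pair 3 it called 0 of the 43 and 0.00821%. The adjusted p of Actg1 in that fit was 0.131 without pair 2 and 0.128 without pair 3, and that of Diaph1 lay between 0.0806 and 0.194 when any pair was left out.

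**Figure D2:**
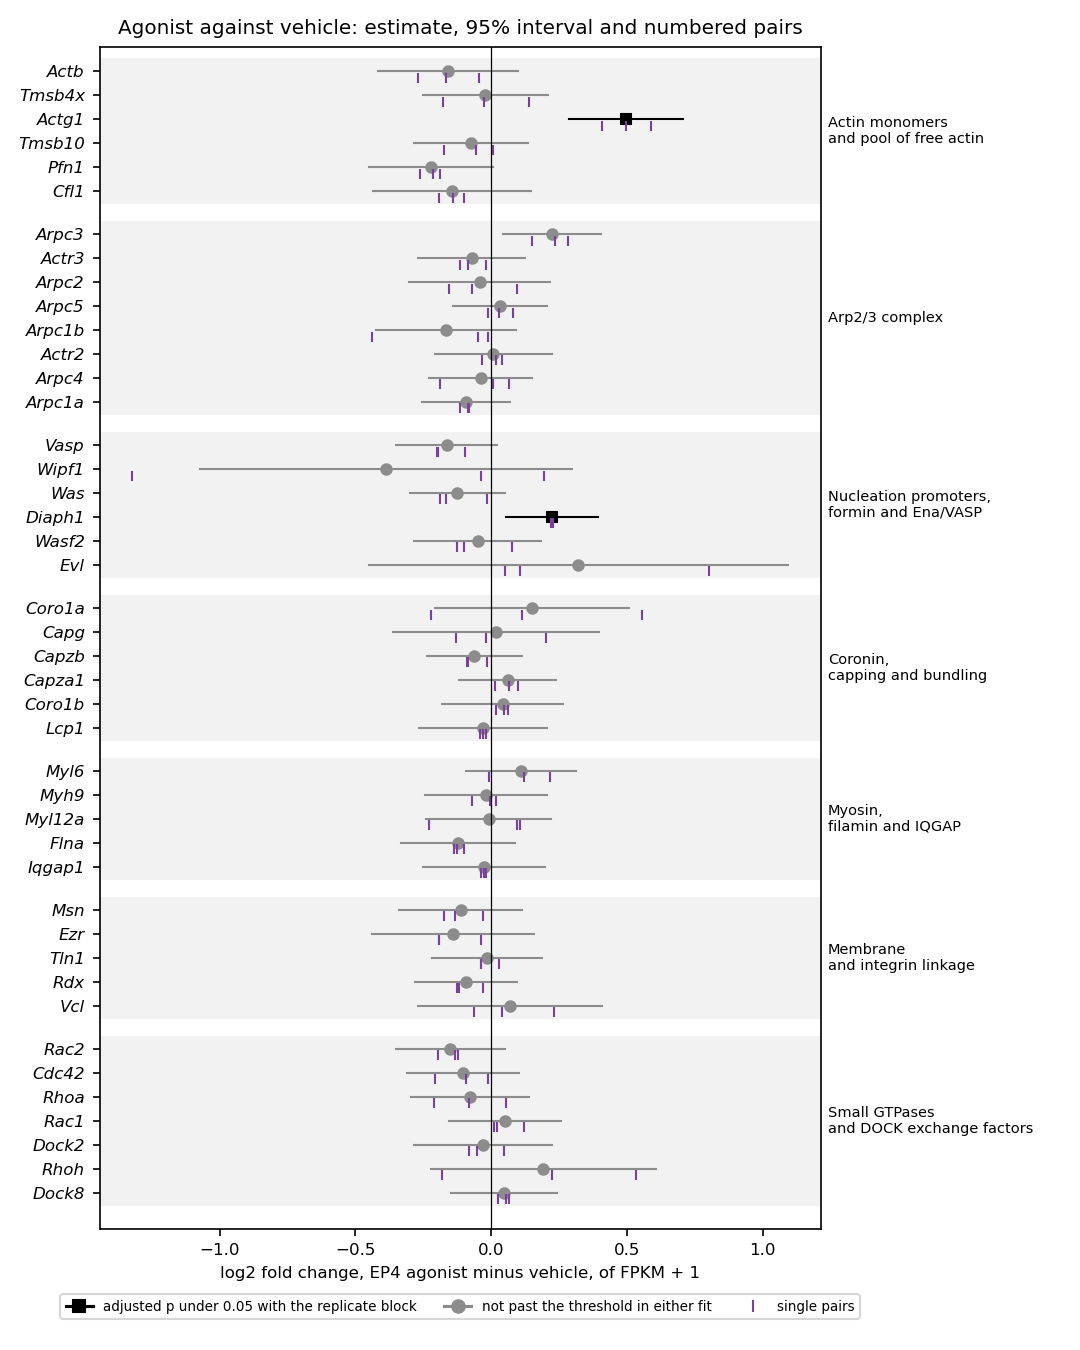
Log2 fold change of FPKM + 1, agonist minus vehicle, for the 43 genes by role, with the 95% interval of the fit without a block as a line and the 3 numbered pairs as purple ticks. Black squares mark Actg1 and Diaph1, which passed the threshold with the replicate block, and the widest intervals belong to Evl and Wipf1.

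Among actin and the proteins of its monomer pool, 1 of 6 genes, Actg1, was higher with agonist, and the other 5 had fold changes below 0. Actg1, cytoplasmic gamma actin, had 1652, 1779.7 and 1869 FPKM in agonist replicates 1, 2 and 3, against 1246, 1263 and 1242 FPKM in vehicle replicates 1, 2 and 3. Every agonist library was above every vehicle library, with means of 1767 ± 109 FPKM with agonist and 1250.4 ± 10.9 FPKM with vehicle (SD, n = 3 each). The log2 fold change was 0.50 (SE 0.09, 95% interval 0.29 to 0.71), a 1.41-fold difference, with an adjusted p of 0.0901 in limma without the block and 0.0246 with it. Actg1 was the 26th most abundant of the tested genes by mean FPKM. Near-identical copies of Actg1 could share its reads. Of 4 copies listed, 3 averaged at least 1 FPKM (Actg-ps1, Gm12715 and Gm8399). The 4 had summed levels of 570.3, 636 and 680.4 FPKM in agonist libraries and 423, 447 and 437 FPKM in vehicle libraries, which is 33.9 to 36.4% of the level of Actg1 in each library. The level of Actg1 with its copies was 2223, 2416 and 2549 FPKM with agonist, against 1669, 1709.7 and 1679.5 FPKM with vehicle, and these sums do not overlap either. Gm23419 and Mir6935 overlap Actg1 on its strand and were listed with summed levels of 1736, 1898 and 2027 FPKM with agonist and 1254, 1372 and 1289 FPKM with vehicle, so reads may be shared with them.

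Actb, cytoplasmic beta actin, was the 4th most abundant tested gene and did not pass in either fit. It had 2745, 2991 and 2842 FPKM in agonist replicates 1, 2 and 3, against 2834, 3355 and 3428 FPKM in vehicle replicates 1, 2 and 3, and the groups overlap. The log2 fold change was -0.16 (SE 0.11, limma adjusted p 0.557). In agonist replicate 3 the Actb row held 89.2% of its assembled locus, which stood at 3185 FPKM there, and 100% in every other library. At the locus the log2 fold change of Actb was -0.11 (limma adjusted p 0.709). Pfn1, profilin, which loads ATP-actin for filament growth, had 1123, 1248 and 1201 FPKM with agonist, against 1279.8, 1449 and 1441 FPKM with vehicle. Its agonist libraries were all below its vehicle libraries, with a log2 fold change of -0.22 (SE 0.10) and a limma adjusted p of 0.370 without the block and 0.0828 with it. Tmsb4x and Tmsb10, the thymosins that sequester monomers, reached 2062 to 2342 and 1387 to 1505 FPKM in agonist libraries and 2127 to 2333 and 1442 to 1569.6 FPKM in vehicle libraries. Cfl1, cofilin, which severs filaments, ranged over 884 to 1053 FPKM with agonist and 946 to 1177 FPKM with vehicle, so that all of these overlap between the groups.

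The share of gamma actin among the cytoplasmic actins was higher in every agonist library. Actg1 made up 37.6, 37.3 and 39.7% of the summed FPKM of Actb and Actg1 in agonist replicates 1, 2 and 3 (38.2% ± 1.30, SD, n = 3), against 30.5, 27.3 and 26.6% in vehicle replicates 1, 2 and 3 (28.2% ± 2.10, n = 3). All agonist shares were above all vehicle shares, by 10.02 percentage points on average, with an exact two-sided permutation p of 0.1, the smallest that 3 against 3 libraries allow, and 0.667 after adjustment over the 8 families compared. The sum of both actins was 4398, 4770.4 and 4711 FPKM with agonist, against 4080.0, 4618 and 4669.8 FPKM with vehicle, and these sums overlap. A share within a library does not depend on how the library was scaled. It does depend on how much of each locus the rows hold, and at assembled loci the difference was 9.01 points.

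**Figure D3:**
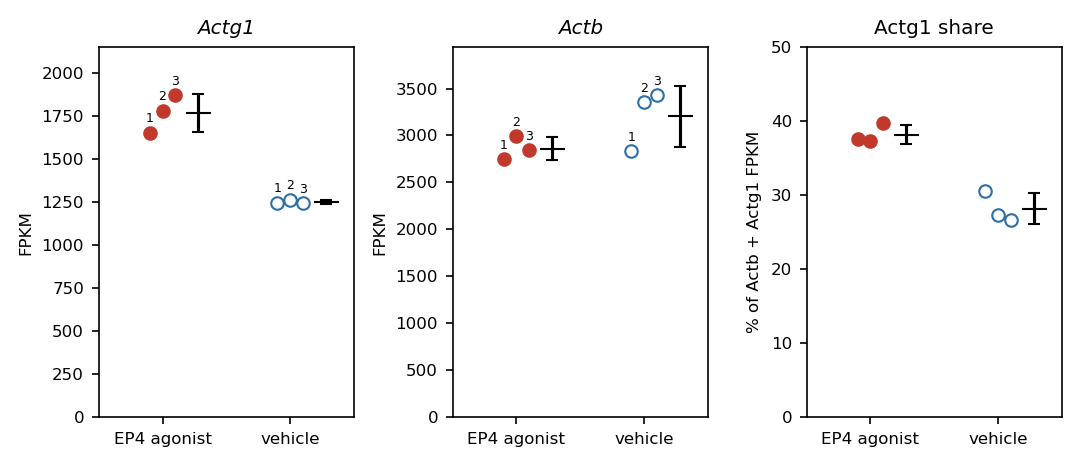
FPKM of Actg1 and of Actb and the Actg1 share of their sum, in percent, with each library as a point labelled with its replicate number in the first 2 panels, agonist left of vehicle. Black marks give mean and SD over 3 libraries; the Actg1 shares are 37.3 to 39.7% with agonist and 26.6 to 30.5% with vehicle.

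In the 7 other families the shares of the groups overlapped. Tmsb10 made up 39.1% ± 1.10 of both thymosins with agonist and 40.0% ± 1.60 with vehicle. Arpc1a made up 18.7% ± 1.10 of the Arpc1 subunits with agonist and 18.0% ± 2.01 with vehicle, and Coro1b 11.9% ± 0.905 and 12.8% ± 1.91 of the type 1 coronins. Ezr made up 30.1% ± 1.99 of the ezrin, radixin and moesin sum with agonist and 30.6% ± 2.48 with vehicle. Rac1 made up 25.8% ± 2.42 of Rac1 and Rac2 with agonist and 23.2% ± 1.78 with vehicle, and Dock8 37.7% ± 1.87 and 36.4% ± 0.900 of Dock2 and Dock8. Evl made up 1.96% ± 1.21 of Evl and Vasp with agonist and 1.20% ± 0.329 with vehicle by reference rows, but 26.2, 19.6 and 20.2% with agonist and 25.3, 17.7 and 21.0% with vehicle by assembled loci, since its row holds little of its locus. The exact permutation p-values of these 7 lay between 0.3 and 0.7.

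The Arp2/3 complex, which nucleates branched filaments, had 0 of 8 subunits past the threshold without the block or with it. Arpc3, a subunit of the complex, had 289, 307 and 309 FPKM in agonist replicates 1, 2 and 3, against 260.3, 252 and 263 FPKM in vehicle replicates 1, 2 and 3. Every agonist library was above every vehicle library. The log2 fold change was 0.22 (SE 0.08, 95% interval 0.04 to 0.40), with a limma adjusted p of 0.281 without the block and 0.0634 with it. After quantile normalization with the block the fold change was 0.27 and the adjusted p 0.0456, so that Arpc3 joined Actg1 (0.0433) and Diaph1 (0.0322) past the threshold (3 of 43, 6.98%, where 8.18% of all tested genes passed, 4.26% higher and 3.92% lower). Arpc1a, the broadly expressed form of the ARPC1 subunit, had 34.7, 34.7 and 36.7 FPKM with agonist, against 37.7, 36.8 and 38.9 FPKM with vehicle. Its groups did not overlap, yet the log2 fold change was only -0.09 (SE 0.07, limma adjusted p 0.587). Arpc1b, the form prominent in blood cells, had 145, 164 and 153 FPKM with agonist and 196, 169.9 and 155 FPKM with vehicle, the lowest fold change of the complex at -0.17 (SE 0.11, limma adjusted p 0.538, and -0.075 without vehicle replicate 1). The other 5 subunits, Actr2, Actr3, Arpc2, Arpc4 and Arpc5, spanned 88.5 to 279.5 FPKM over agonist libraries and 96.0 to 296 FPKM over vehicle libraries, and the groups overlapped in each.

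Among activators and elongators, Diaph1, the formin mDia1 that extends straight filaments under RhoA, was higher with agonist. It had 49.4, 47.1 and 51.0 FPKM in agonist replicates 1, 2 and 3, against 42.1, 40.3 and 43.5 FPKM in vehicle replicates 1, 2 and 3. The groups did not overlap, and the 3 numbered pairs gave nearly the same log2 difference, 0.23, 0.22 and 0.22. The log2 fold change was 0.22 (SE 0.07, 95% interval 0.05 to 0.39), a 1.17-fold difference, with a limma adjusted p of 0.259 without the block and 0.0383 with it. Vasp, which lengthens filaments at the leading edge, had 151, 136 and 142 FPKM with agonist, against 162, 156 and 163 FPKM with vehicle. Was, the WASP protein that activates Arp2/3 in blood cells, had 79.8, 74.0 and 77.2 FPKM with agonist, against 80.7, 84.5 and 86.9 FPKM with vehicle. Both were lower in every agonist library, with log2 fold changes of -0.16 (SE 0.08) and -0.12 (SE 0.07), and neither passed (limma adjusted p 0.410 and 0.496 without the block, 0.0991 and 0.203 with it). Wipf1, the partner that stabilises WASP, had 76.4, 44.4 and 104 FPKM with agonist and 78.4, 112 and 90.5 FPKM with vehicle. This is the lowest fold change of the 43, -0.39 (SE 0.29, limma adjusted p 0.597), and it rests on agonist replicate 2, without which it was -0.059. Evl, a relative of Vasp, had 5.26, 1.65 and 1.89 FPKM with agonist and 2.59, 1.56 and 1.68 FPKM with vehicle, with replicate 1 highest in each group and a log2 fold change of 0.32 (SE 0.33, limma adjusted p 0.710), which was -0.072 without agonist replicate 1. Wasf2, the WAVE2 protein that activates Arp2/3 downstream of Rac, ranged over 40.0 to 47.2 FPKM with agonist and 43.1 to 50.7 FPKM with vehicle.

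No coronin, capping or bundling protein passed in either fit (0 of 6). Coro1a, the coronin of blood cells, had 864, 888 and 715 FPKM with agonist and 798, 604 and 834 FPKM with vehicle, with a log2 fold change of 0.15 (SE 0.15, limma adjusted p 0.706). It was 0.0047 without vehicle replicate 2, whose row held 58.9% of its locus. Capzb, the beta subunit of the capping protein that stops barbed-end growth, had 171, 177 and 165 FPKM with agonist and 182, 179 and 175 FPKM with vehicle, the lowest fold change of these 6 at -0.06 (SE 0.07, limma adjusted p 0.755). Its partner subunit Capza1 ranged over 111 to 121 FPKM with agonist and 108 to 113 FPKM with vehicle. Coro1b ranged over 103 to 121 and 102 to 117 FPKM, the capping protein Capg over 276 to 345 and 255 to 377 FPKM, and the bundling protein Lcp1 over 30.8 to 37.0 and 31.7 to 37.6 FPKM with agonist and vehicle, all overlapping.

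No myosin, filamin or IQGAP gene passed in either fit (0 of 5). Myl6, the essential light chain of non-muscle myosin, was the 65th most abundant tested gene, at 815, 903 and 848 FPKM with agonist and 819, 777 and 779 FPKM with vehicle (log2 fold change 0.11, SE 0.09, limma adjusted p 0.612). Flna, filamin A, which crosslinks filaments into networks, had 108, 110.0 and 122 FPKM with agonist and 119, 118 and 134 FPKM with vehicle (log2 fold change -0.12, SE 0.09, limma adjusted p 0.589). It was lower with agonist in all 3 numbered pairs, while the groups overlapped. Myh9, the heavy chain of non-muscle myosin IIA, ranged over 173 to 205 FPKM with agonist and 182 to 203 FPKM with vehicle. Its regulatory light chain Myl12a ranged over 124 to 129.9 and 119 to 146 FPKM, and the scaffold Iqgap1 over 62.3 to 71.7 and 63.5 to 73.5 FPKM.

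Linkers between filaments, membrane and integrins did not pass either (0 of 5). Ezr, ezrin, had 107, 115 and 128 FPKM with agonist and 109.7, 132 and 147 FPKM with vehicle, lower with agonist in each numbered pair (log2 fold change -0.14, SE 0.13, limma adjusted p 0.666), and the fold change was -0.25 without vehicle replicate 1 and -0.046 without vehicle replicate 3. Vcl, vinculin, which reinforces integrin adhesions, was scarce, at 2.30, 2.65 and 3.43 FPKM with agonist and 2.22, 2.82 and 2.77 FPKM with vehicle (log2 fold change 0.07, SE 0.14, limma adjusted p 0.877, and -0.048 without agonist replicate 3 or -0.011 without vehicle replicate 1). Its groups overlapped. The Vcl promoter carries a CArG box as that of Actg1 does, and whether the box bears on the level of either gene was not tested. Msn, moesin, the main member of its family in these libraries by FPKM, ranged over 213 to 240.5 FPKM with agonist and 233 to 271 FPKM with vehicle. Rdx, radixin, ranged over 38.4 to 43.9 and 41.8 to 44.8 FPKM, and Tln1, talin, which switches integrins on, over 82.9 to 95.2 and 85.1 to 93.4 FPKM.

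No small GTPase or DOCK exchange factor passed in either fit (0 of 7). Rac2, the Rac of blood cells, had 245, 217 and 228 FPKM with agonist, against 267, 249 and 249.5 FPKM with vehicle. Every agonist library was lower than every vehicle library, with a log2 fold change of -0.15 (SE 0.09) and a limma adjusted p of 0.476 without the block and 0.116 with it. Rhoh, a small GTPase family member of blood cells that does not hydrolyse GTP, had 48.4, 47.2 and 52.1 FPKM with agonist and 55.0, 32.3 and 44.4 FPKM with vehicle, overlapping (log2 fold change 0.19, SE 0.18, limma adjusted p 0.674), and the fold change was -0.0066 without vehicle replicate 2. Cdc42 ranged over 200.4 to 216 FPKM with agonist and 214 to 244 FPKM with vehicle, Rhoa over 147 to 157 and 151 to 179 FPKM, and Rac1 over 73.4 to 83.0 and 72.3 to 82.4 FPKM. The exchange factors Dock2, which activates Rac, and Dock8, which activates Cdc42, ranged over 47.8 to 60.1 and 49.6 to 58.2 FPKM and over 30.0 to 34.3 and 29.5 to 32.7 FPKM with agonist and vehicle.

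The level in a reference row is not always that of its gene. Each table also lists loci that were assembled separately in that library, and for 39 of the 43 genes a single assembled locus covers the gene in every library. In 27 of these the reference row held at least 95% of the locus's FPKM in every library, and in 7 it held under 80% in some library. The row of Lcp1, L-plastin, held 8.69 to 9.04% of its locus, which stood at 353, 394 and 422 FPKM with agonist and 350.4, 409 and 430.0 FPKM with vehicle, so the low Lcp1 level given above is that of the row. The row of Evl held 3.79 to 9.69% of a locus at 54.3, 33.7 and 36.6 FPKM with agonist and 56.0, 34.2 and 44.4 FPKM with vehicle, and the difference changed sign to -0.11. Coro1a rows held 58.9 to 96.8%, and its locus stood at 924, 917.5 and 916 FPKM with agonist, against 985, 1026 and 960.2 FPKM with vehicle. At the locus the Coro1a groups do not overlap and agonist is lower (log2 fold change -0.11, limma adjusted p 0.592, 0.268 with the block), the opposite sign to the row. The Arpc1b row held 55.3 to 100% of its locus, which stood at 226, 164 and 277 FPKM with agonist and 196, 169.9 and 154.5 FPKM with vehicle (log2 fold change 0.33, limma adjusted p 0.450), also opposite to the row. Capg rows held 49.3 to 71.6%, and the locus stood at 482, 505 and 516 FPKM with agonist, against 545, 517 and 554 FPKM with vehicle, without overlap and lower with agonist (log2 fold change -0.10, against 0.02 for the row). Rows of Wipf1 (53.5 to 96.8%) and Arpc2 (74.8 to 100%) varied as well, and the Wipf1 fold change was -0.12 at the locus. The groups did not overlap at the locus in 10 of the 39 genes (25.6%, against 20.1% of the genes with a single locus). Actg1 and Arpc3 were higher (5.13%, against 7.11%), and Pfn1, Arpc1a, Was, Vasp, Rac2, Coro1a, Capg and Cdc42 were lower with agonist (20.5%, against 13.0%). The Cdc42 locus stood at 201, 218 and 218 FPKM with agonist, against 224, 227.5 and 252 FPKM with vehicle. At the locus none of these 8 lower genes passed in limma with or without the block.

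**Figure D4:**
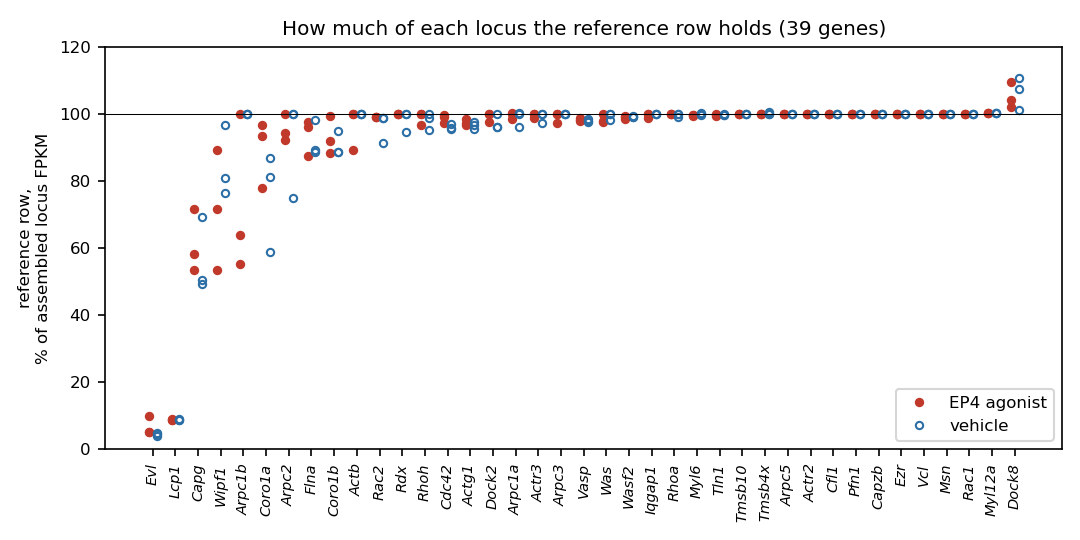
Reference-row FPKM as a percentage of the FPKM of the assembled locus, for the 39 genes with a single locus in every library, agonist libraries as filled red points left of vehicle libraries as open blue points. Evl and Lcp1 rows lie below 10%, rows of Capg, Wipf1, Arpc1b, Coro1a and Arpc2 spread between libraries, and most others lie close to 100%.

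Actg1 and Arpc3 also differed at the locus. Their rows held 95.4 to 98.5% and 97.4 to 100.1% of it over the libraries. The locus values are therefore nearly the same measurements and give no separate check. The Actg1 locus stood at 1677, 1830.0 and 1930.0 FPKM in agonist replicates 1, 2 and 3, against 1276, 1323 and 1284 FPKM in vehicle replicates 1, 2 and 3 (log2 fold change 0.48, limma adjusted p 0.104, 0.0139 with the block). Its share of both actin loci was 37.9, 38.0 and 37.7% with agonist and 31.1, 28.3 and 27.2% with vehicle. The Arpc3 locus had a log2 fold change of 0.24 and a limma adjusted p of 0.252 without the block and 0.0452 with it. At loci with the block, Actg1 and Arpc3 passed, both higher (2 of 39, 5.13%, where 16.3% of the 9119 genes tested at a single locus passed, 5.90% higher and 10.4% lower). By reference rows with the block, 10.5% of the 12186 tested genes passed. Without the block 0 of the 39 passed, where 0.428% of those genes did, 0.373% higher and 0.0548% lower. Diaph1 matched several loci in some library and was not tested at a locus. Assembled loci over Diaph1 on its strand summed to 110, 108 and 113 FPKM with agonist, against 50.2, 90.4 and 98.8 FPKM with vehicle. The Diaph1 row may therefore hold only part of the gene's level. Genes on the opposite strand overlap Arpc1b (Pdap1), Evl (Degs2), Vasp (1700058P15Rik), Coro1a (Bola2), Capza1 (St7l), Tln1 (Creb3), Vcl (Ap3m1), Rac1 (Daglb) and Rhoa (Tcta), and Ttll3 overlaps Arpc4 on its strand, so reads may be shared. Near-identical sequences also include Myl12b for Myl12a, Ptprcap for Coro1b, Gm3608 and Gm5920 for Capza1, Gm15899 and Gm8822 for Actr3, and Gm5637 for Arpc1b. Ptprcap stood at 255, 265 and 251 FPKM with agonist and 305, 286 and 310 FPKM with vehicle, above Coro1b in each library. Myl12b (238, 224 and 222 against 196, 193 and 205 FPKM) stood above Myl12a in each library. Ap3m1, which also holds sequence near-identical to Vcl, stood above Vcl in each library.

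Of 159 further genes of the actin pathway, 144 were tested. Without the block 2 were higher with agonist, Rhoq and Slk, and 0 were lower (1.39%, against 0.394% of all tested genes). With it 9 were higher and 10 lower (13.2%, against 10.5%). Rhoq, the Cdc42-related GTPase TC10, had 12.8, 11.6 and 11.6 FPKM in agonist replicates 1, 2 and 3, against 6.71, 5.39 and 6.14 FPKM in vehicle replicates 1, 2 and 3. It rose by a log2 fold change of 0.88 (SE 0.10, limma adjusted p 0.0209), the groups did not overlap, and the locus gave 1.02 (limma adjusted p 0.00905). Pigf lies over Rhoq on the opposite strand, and since the strand setting is not given in the sources used here, their reads may not have been told apart. Slk, a kinase that phosphorylates ezrin, radixin and moesin, had 23.9, 23.6 and 25.4 FPKM with agonist, against 17.1, 17.1 and 17.5 FPKM with vehicle. It rose by 0.47 (SE 0.07, limma adjusted p 0.0498), and the groups did not overlap. Leaving out any single library took Slk above the threshold (limma adjusted p 0.0578 to 0.225). Rhoq kept its call without vehicle replicate 1 (0.0173) and lost it without any other single library (0.0753 to 0.116).

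The further genes that passed only with the block lay in both directions within the same functions. Without pair 1, 6 of the 144 passed with the block (Scin, Coro2a, Tpm3, Rasgrp2, Rhoq and Swap70), and without pair 2 or without pair 3, 0 passed. Among regulators of filament turnover, Scin, which severs and caps filaments, Ssh2, a phosphatase that activates cofilin, and Wdr1, which speeds cofilin-driven disassembly, were higher. Scin was scarce, at 6.38, 3.11 and 2.73 FPKM with agonist and 3.22, 1.02 and 0.736 FPKM with vehicle. The groups overlapped for Scin and for Ssh2 (limma adjusted p 0.327 and 0.476 without the block, 0.0174 and 0.0450 with it). The Wdr1 row had 84.5, 85.7 and 92.1 FPKM with agonist, against 65.4, 61.8 and 74.6 FPKM with vehicle, without overlap (log2 fold change 0.38, SE 0.09, limma adjusted p 0.167 without the block, 0.0242 with it). Assembled loci over Wdr1 on its strand summed to 412, 413 and 442 FPKM with agonist, against 132, 257 and 147 FPKM with vehicle. The row may therefore hold only part of the gene's level, and Wdr1 was not tested at a locus. Coro2a, a coronin, was lower at 43.6, 48.4 and 57.0 FPKM with agonist, against 63.9, 78.3 and 84.7 FPKM with vehicle (log2 fold change -0.60, SE 0.14, limma adjusted p 0.153 and 0.0166), as was Marcksl1. Among small GTPases and their regulators, Rhoc, Tiam1, an exchange factor for Rac, and Swap70, an actin-binding partner of Rac, were higher. Arhgef1, an exchange factor for RhoA, Racgap1, which inactivates Rac and Cdc42 at division, and Rras2 were lower. Arpc5l, a relative of the Arp2/3 subunit Arpc5, and Cyfip2, a subunit of the WAVE complex, were lower too, at -0.27 (SE 0.07) and -0.23 (SE 0.09). Rasgrp2, the exchange factor that turns on Rap1 for integrin adhesion, had 8.89, 11.7 and 14.1 FPKM with agonist, against 15.2, 21.3 and 22.6 FPKM with vehicle (log2 fold change -0.72, SE 0.19, limma adjusted p 0.186 and 0.0142). Spn, the anti-adhesive surface protein CD43, was lower by the same fit (-0.27, SE 0.16). After quantile normalization with the block, 4 of the 10 lower genes passed, Coro2a, Tpm3, Rasgrp2 and Arhgef1, while the 9 higher genes all did. Over all tested genes the same step took the share called lower to 3.92%, against 6.41% before it, and the share called higher to 4.26%, against 4.09%. At its locus Arhgef1 did not pass (log2 fold change -0.21, limma adjusted p 0.0612 with the block).

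**Figure D5:**
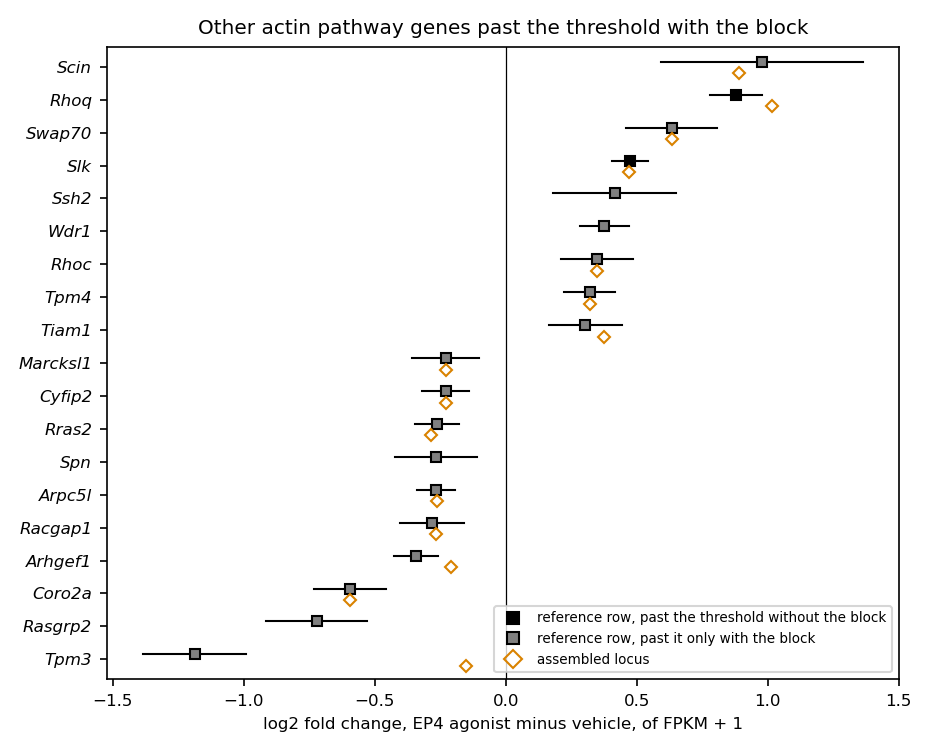
Log2 fold change of FPKM + 1, agonist minus vehicle, for the 19 further actin pathway genes past the threshold with the block, as squares with lines of 1 SE on each side of the estimate without a block, black where it also passed without the block (Rhoq, Slk). Orange diamonds give the assembled locus where there is a single one; the diamond of Tpm3 lies at -0.15, far from its square at -1.19.

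The tropomyosins Tpm3 and Tpm4, which wrap filaments, gave unequal differences. The Tpm3 row had 113, 178 and 112 FPKM with agonist, against 262, 347 and 296 FPKM with vehicle (log2 fold change -1.19, SE 0.20, limma adjusted p 0.0707, 0.0148 with the block). The Tpm3 locus differed by -0.15 (limma adjusted p 0.484, 0.129 with the block), so the difference of the row was not seen at the locus. Tpm3-rs7, a near-identical copy, was listed at 68.6, 71.7 and 73.2 FPKM with agonist and 55.7, 59.8 and 76.8 FPKM with vehicle. Tpm4 had 269.5, 288 and 308 FPKM with agonist, against 213, 227 and 253 FPKM with vehicle, and its row and its locus both gave a log2 fold change of 0.32 (row: SE 0.10, limma adjusted p 0.231, 0.0273 with the block; locus: 0.0163 with the block). Srf, which encodes the factor that binds the CArG box, had 15.1, 16.2 and 15.8 FPKM with agonist and 15.6, 17.1 and 16.5 FPKM with vehicle, overlapping (log2 fold change -0.06, SE 0.07, limma adjusted p 0.770).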

How the data were processed

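Messenger RNA was sequenced from 3 agonist and 3 vehicle libraries of sorted nTregs, grouped and numbered by their titles. RNA was taken with a column kit and libraries were made with a stranded Illumina kit, per the labels' protocols. The submitters' processing notes name Trim Galore, HISAT2 and the mm10 build and give no version. Which program made the abundances, with which annotation and strand setting, is not given in the sources used here. The authors' tables, per the file headers, hold coverage, FPKM and TPM for every feature. The deposited FPKM values of reference rows were used without rescaling, and rows that share a gene identifier were summed. The deposited coverage signal served for aligned bases and as an alternative, and TPM was not used. Fragment counts behind each value are unknown, so precision is the spread between libraries.

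Genes that reached 1 FPKM in 3 or more libraries were tested on log2(FPKM + 1), a scale that understates changes of low genes, with limma 3.58.1 (trend and robust variances, statmod 1.5.0, R 4.3.3) and Benjamini-Hochberg adjustment over all 12186 tested genes, threshold 0.05. Family shares were compared by an exact two-sided permutation test. Promoter and coding sequences are from RefSeq (GRCm38.p6) and GENCODE M21, and copies of at least 95% identity over 200 bases were found with BLAST 2.17.0. Tables and plots used Python 3.11.15, pandas 2.3.3, numpy 2.4.6 and matplotlib 3.10.9.

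The 43 genes and the other lists were chosen with earlier results of these data known. Each of the 43 could be named by role, with values in every library for those past the threshold in either fit and for the highest and lowest fold change of each role. Actb and the genes whose groups do not overlap were added after their values were seen. Of the further pathway genes, those past the threshold were named, in the blocked fit because fewer than 6 passed without it, with Srf.

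Replicate numbers occur in both groups. Deviations from group means correlated at 0.512, 0.404 and 0.321 between libraries of the same number and at -0.353 to 0.002 otherwise. Such deviations cancel within a group, so positive same-number values make the others negative on balance. The others therefore give no separate evidence for pairing. All same-number values exceed 0.1, so they were used as pairs. This rests on the correlations alone, since the labels do not say what the numbers mean, and choosing a block this way favours smaller p-values. The erythroid and platelet marker list is not reported here.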

Additional observations from a re-analysis of the deposited data

How the results depend on the processing

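Alternatives covered the block, the pseudocount (0.1), filters, scalings, deposited coverage, the variance model and each library left out, and the assembled loci were added after seeing the data. Without a block, 0 of the 43 genes passed in any of these settings, and none passed as lower with the block. Genes called higher numbered 2 with the replicate block, 3 with the block and quantile normalization, 2 with the block at assembled loci, and 0 to 1 when a pair was also left out. Over all genes the blocked fit called 0 without pair 2 and 1 without pair 3.

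Among all tested genes, 42 were higher and 6 lower without the block. With the replicate block the counts were 498 and 781, with quantile normalization added 519 and 478, and at assembled loci with the block 538 and 947. With no filter on low FPKM they were 2 and 0, with coverage 85 and 11, and 66 were higher with upper quartile scaling. Leaving out a library gave 0 to 107 higher and 0 to 26 lower, and leaving out a pair with the block 0 to 151 higher and 0 to 90 lower.

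Of the further pathway genes, 2 were higher and 0 lower without the block. The counts were 9 and 10 with the replicate block, 10 and 4 with quantile normalization added, 11 and 13 at loci with the block, and 0 higher with no filter and 1 with plain variances. Leaving out a library gave 0 to 1 higher. Leaving out a pair with the block gave 0 to 3 of each.

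Of the 19 genes of the 43 given one by one, 13 kept the sign of their fold change in every setting. Sign changes, with no call on either side, were Arpc1b 0.33 at loci, with and without the block, Evl -0.025 by coverage, -0.11 at loci and -0.072 to 0.55 with a library left out (lowest without agonist replicate 1), and Coro1a -0.11 by coverage, -0.054 with the block without replicate 2 and -0.11 at loci. Wipf1 gave 0.079 with the block without replicate 2, Vcl -0.048 to 0.16 with a library left out (lowest without agonist replicate 3, -0.011 without vehicle replicate 1) and -0.013 with the block without replicate 3, and Rhoh -0.0066 to 0.37 with a library left out (lowest without vehicle replicate 2). Of the other 24, 13 changed sign in some setting, and none passed the threshold in any. The cause was not tested.

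The Actg1 share kept its direction in every setting run. Differences of other shares that changed sign were Arpc1a (-3.98 points at loci, -0.254 to 1.75 with a library left out), Coro1b (1.05 by coverage, 0.77 at loci, -1.81 to 0.0999 with a library left out) and Ezr (-1.91 to 0.66 with a library left out). Depth limits low genes most, and fragment counts behind Vcl are unknown. They are also unknown behind the row of Evl, which held only 3.79 to 9.69% of its locus.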
